A study of Mus musculus with 18 samples.

Results

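Nuclear receptors and the aryl hydrocarbon receptor are the proteins with which a hepatocyte senses drugs, pollutants, fatty acids, sterols and hormones. The genes described here were Nr1i2, Nr1i3, Ppara, Rxra, Nr1h3, Ahr, Esr1, Nr3c1 and Thrb. Their members were found by gene symbol, as all probe sets that the platform table assigns to 1 of these 9 genes, whatever their values. They made up 22 of the 45101 probe sets of the array. A signal over log2 4 on 3 or more arrays was required for a test. That limit was met by 17 of the 22 and by 8 of the 9 genes, among 9053 genes tested over the array, and Thrb was the gene that did not meet it.

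The arrays came from male mice in a study of Tlr4, the receptor for bacterial lipopolysaccharide, and of gut bacteria in the promotion of hepatocellular carcinoma. Normal liver (3 arrays) was from untreated C3H/HeOuJ mice aged 15 weeks, which carry wild-type Tlr4. All 15 tumours were lesions dissected at 54 weeks from mice that had received the carcinogen DEN (diethylnitrosamine, 100 mg/kg) at week 12 and 6 injections of the liver toxin CCl4 (0.5 ml/kg) from week 13 to week 23. They were 7 tumours of C3H/HeOuJ mice, called wild-type tumours here, 5 tumours of C3H/HeJ mice, whose Tlr4 carries the P712H mutation, and 3 tumours of C3H/HeOuJ mice that drank ampicillin, neomycin and metronidazole (each at 1 g/l) with vancomycin (500 mg/l) from week 10 onwards. The mutation is carried in the germ line by a different substrain, so strain and Tlr4 genotype cannot be told apart. Nothing in the labels says whether arrays of a group stand for separate mice. The p-values therefore speak of the spread among these arrays, and part of that spread may be technical.

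Several nuclear receptors bind DNA as a pair with a retinoid X receptor, such as the product of Rxra, and switch genes on or off when a small molecule fills their pocket. The constitutive androstane receptor (CAR, from Nr1i3) and the pregnane X receptor (PXR, from Nr1i2) drive the cytochrome P450 enzymes, conjugating enzymes and transporters that clear foreign chemicals from the liver. The peroxisome proliferator-activated receptor alpha (PPARalpha, from Ppara) turns on fatty acid oxidation in fasting, and the liver X receptor alpha (LXRalpha, from Nr1h3) responds to oxysterols. The aryl hydrocarbon receptor is not a nuclear receptor but a ligand-activated factor of another family that induces Cyp1a genes.

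The arrays were alike in overall signal, with medians of the expressed probe sets from 6.69 to 6.85 (log2). Normal liver stood apart from the tumours in technical measures too. The Gapdh 3' minus 5' probe difference was 1.37 to 1.61 (log2) in normal liver and 0.20 to 1.02 in tumours, and the dap control transcript read 10.2 to 10.5 against 1.77 to 2.22. Age, chemical treatment, tumour state and these measures thus separated the same arrays, and their parts in any difference from normal liver cannot be told apart. The summed level of the 7 hepatocyte markers (Alb, Apoa1 and others) lay between 16.97 and 17.22 (log2) on all 18 arrays. Among the wild-type tumours, numbers 17 and 19 stood apart from the rest. They were the only arrays above log2 4 for Lgr5 (7.04 and 9.01) and Axin2 (6.08 and 7.88), markers of hepatocytes around the central vein, and results that rest on them are given with and without them.

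The receptors were lower in tumours or did not pass the test, and none passed as higher. In wild-type tumours 3 of the 8 tested genes, Nr1i3, Ppara and Esr1, were lower than in normal liver (limma on all genes, Benjamini-Hochberg adjusted p under 0.05), where 39.0% of all genes tested were called and 20.2% were called lower. In Tlr4-mutant tumours 2 of 8, Nr1i3 and Ppara, were lower, with 22.3% of all genes called and 10.5% called lower. In antibiotic tumours 1 of 8, Ppara, was lower, with 15.0% called and 6.91% called lower. The members' median difference from normal liver was -0.42, -0.31 and -0.27 (log2) in wild-type, mutant and antibiotic tumours, beside -0.0078, 0.019 and -0.0022 for all genes tested. These 3 comparisons share the normal livers. The share of members called was close to the background in each comparison, and so is not a result about the receptors as a group.

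**Figure D1:**
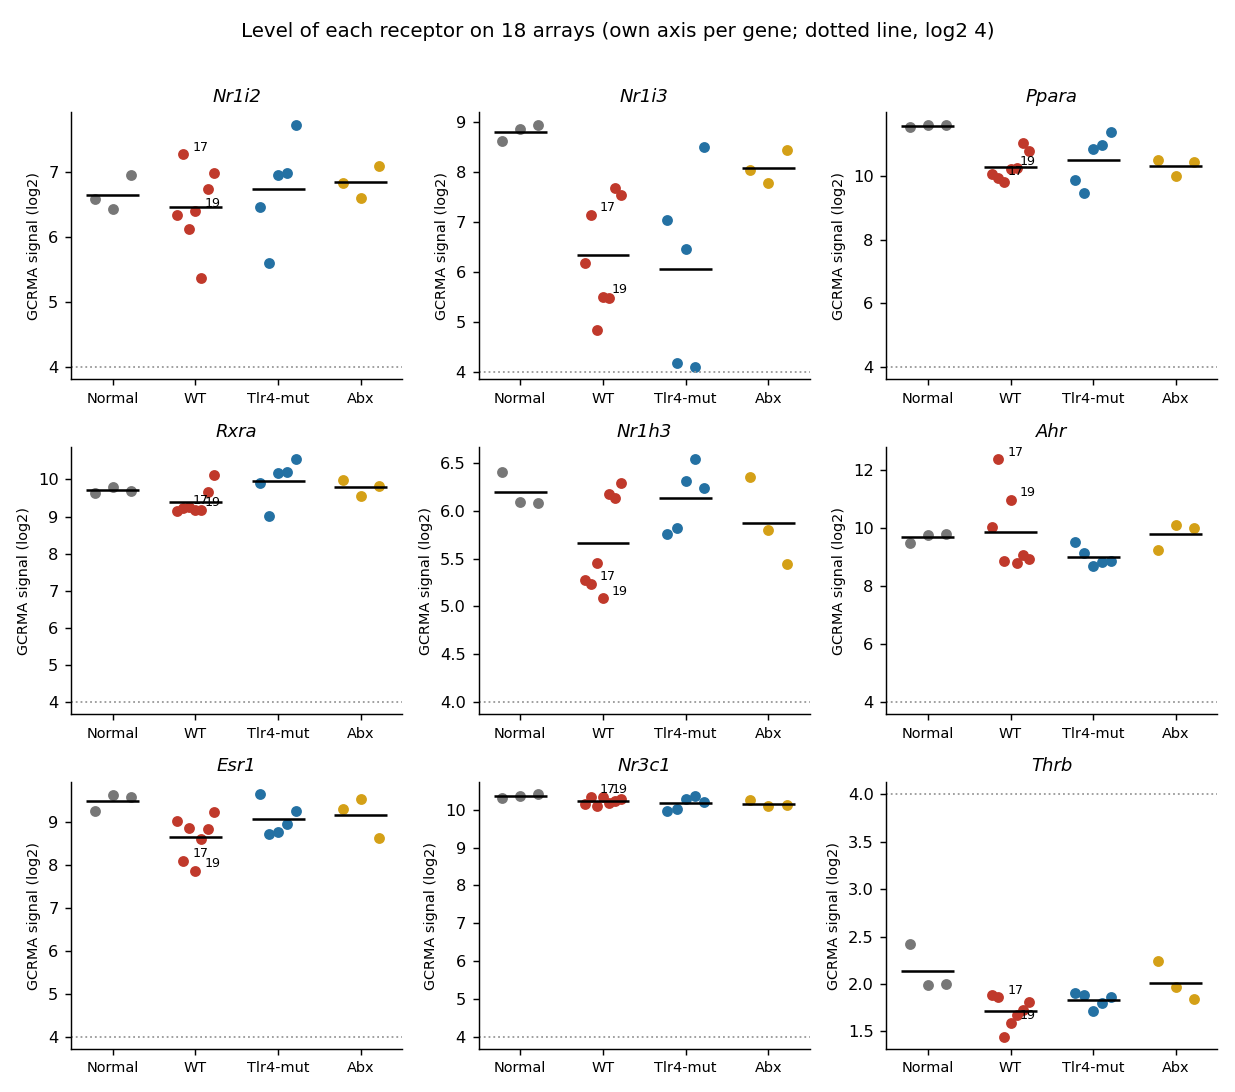
Level of each of the 9 receptor genes on the 18 arrays, as GCRMA signal (log2, own vertical axis per gene), in normal liver, wild-type (WT), Tlr4-mutant and antibiotic (Abx) tumours. Points are arrays, bars are group means, the dotted line is log2 4, and wild-type tumours 17 and 19 are numbered; Nr1i3 spread from 4.11 to 8.50 in mutant tumours, and Thrb stayed below the line on all arrays.

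Between tumour groups no member passed the test. Between mutant and wild-type tumours 0 of 8 receptors passed limma at an adjusted p under 0.05 (0.265% of all genes were called), with 1 member, Rxra, at an unadjusted p under 0.05, as were 16.7% of all genes. Between antibiotic and wild-type tumours 0 of 8 passed the same test (0.0884% of all genes called), again with 1 member, Nr1i3, at an unadjusted p under 0.05, as were 15.5% of all genes. Between mutant and antibiotic tumours 0 of 8 passed (0.232% of all genes called), with 1 member, Nr1i3, at an unadjusted p under 0.05, as were 10.3% of all genes. The 3 comparisons share tumour arrays pairwise. Intervals are given with the members that came nearest.

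**Figure D2:**
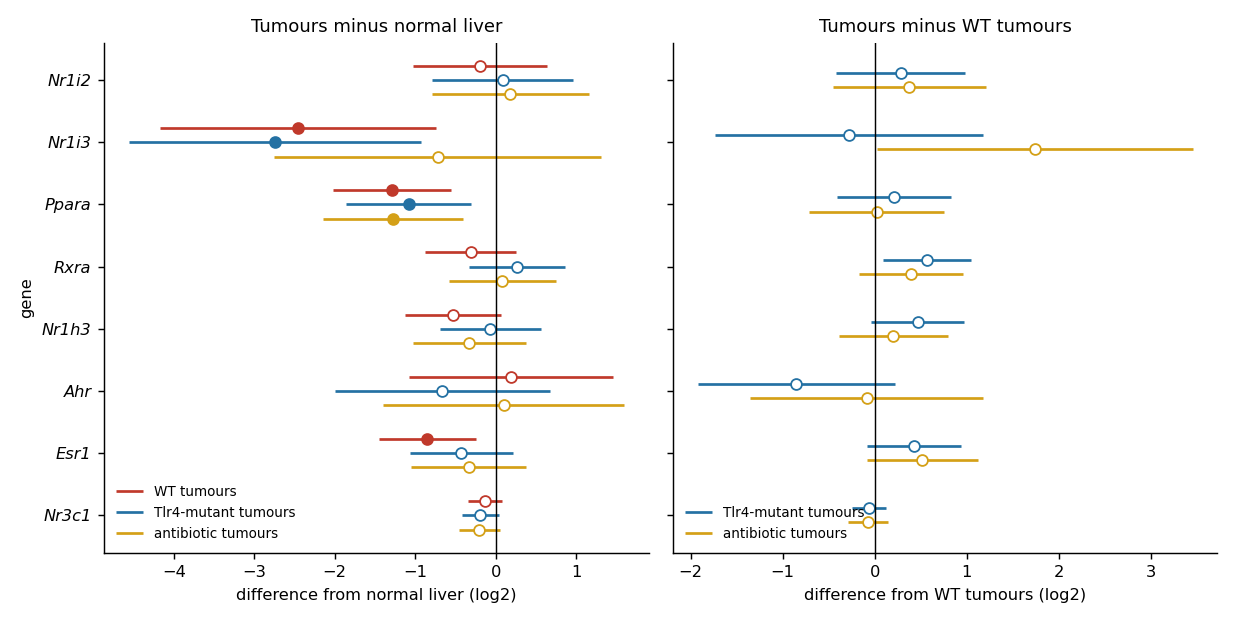
Difference of each tested receptor from normal liver (left) and from wild-type tumours (right), in log2 units, with 95% confidence intervals from the limma fit. Filled points passed an adjusted p of 0.05 (Nr1i3, Ppara and Esr1 in wild-type, Nr1i3 and Ppara in mutant, and Ppara in antibiotic tumours); no point in the right panel is filled.

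Nr1i3, which encodes CAR, had the largest fall of the 8 tested receptors in both wild-type and mutant tumours, and the widest spread of them in the mutant tumours. Its 1 probe set read 8.62, 8.85 and 8.94 (log2) in normal liver. In wild-type tumours 16 to 22 it read 6.19, 7.15, 4.85, 5.50, 5.48, 7.68 and 7.55. In mutant tumours 23 to 27 it read 7.04, 4.19, 6.47, 4.11 and 8.50. Every wild-type and mutant tumour was thus below every normal liver, and mutant tumours 24 and 26 lay just above the detection limit of log2 4, while mutant tumour 27 almost reached normal liver. Antibiotic tumours read 8.04, 7.78 and 8.43, below the normal livers but above all 7 wild-type tumours. Such separation was common, as wild-type tumours and normal liver did not overlap, in either direction, for 38.4% of all genes. Every antibiotic tumour was below every normal liver for 22.5%, and the share for mutant tumours is not given here.

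The mean of Nr1i3 was 6.34 ± 1.12 (SD, n = 7) in wild-type tumours against 8.80 ± 0.17 (SD, n = 3) in normal liver, a difference of -2.46 ± 0.81 (SE, log2), or 5.51-fold lower (limma adjusted p = 0.0248). In mutant tumours the mean was 6.06 ± 1.90 (SD, n = 5), and the difference from normal liver was -2.74 ± 0.86 (SE), or 6.69-fold lower (limma adjusted p = 0.0313). In antibiotic tumours the mean was 8.08 ± 0.33 (SD, n = 3), and the difference of -0.72 ± 0.96 (SE) did not pass (limma adjusted p = 0.637). Its 95% interval, -2.75 to 1.31, included differences as large as those of the other tumours. The call in wild-type tumours ended when any of the 3 normal livers was left out (adjusted p up to 0.0776). The call in mutant tumours ended without any normal liver, without mutant tumour 24 or 26 (adjusted p up to 0.0925), and when only the compared groups were fitted (0.0592).

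Antibiotic tumours exceeded wild-type tumours in Nr1i3 by 1.74 ± 0.81 (SE, log2; 95% interval 0.03 to 3.46), with no overlap of the groups but a limma adjusted p of 0.316. Over all genes, 1.80% had every antibiotic tumour above every wild-type tumour. Against antibiotic tumours, mutant tumours differed by -2.02 ± 0.86 (SE; 95% interval -3.84 to -0.21), with overlap and a limma adjusted p of 0.431. Mutant and wild-type tumours overlapped over most of their range (difference -0.28 ± 0.69, SE; limma adjusted p = 0.859). The order of the group means was therefore normal liver, antibiotic, wild-type and mutant tumours, and no neighbours in that order differed past the threshold.

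Across the 15 tumours, the genes whose levels followed Nr1i3 most closely were Acsm5 (Pearson r 0.93, Spearman rho 0.93), Acsm1 (r 0.89, rho 0.79), both encoding medium-chain acyl-CoA synthetases, and Cyp2c50 (r 0.89, rho 0.90), a cytochrome P450 known to be induced through CAR. These correlations pool 3 tumour groups and describe these 15 arrays only. Of the 17 tested CAR and PXR target genes, 16 had r above 0 with Nr1i3, with a median r of 0.53, where the median over all genes was -0.01. Cyp2c50 read 12.8 to 13.0 in normal liver but 8.20 in wild-type tumour 18 and 7.83 in mutant tumour 26, which were also among the lowest arrays for Nr1i3. The summed level of 7 pericentral hepatocyte markers moved with Nr1i3 as well. It was 14.59 to 14.70 (log2) in normal liver, 11.60 to 15.23 in wild-type, 12.44 to 14.32 in mutant and 14.09 to 14.37 in antibiotic tumours. Its r with Nr1i3 over the 15 tumours was 0.69 (rho 0.64), and 0.90 without wild-type tumours 17 and 19. The summed level of 4 periportal hepatocyte markers also moved with Nr1i3 (r 0.39, rho 0.68, and r 0.63 without those 2 tumours). The likeness was thus not particular to pericentral markers. Of the 5 pericentral markers tested 0 passed limma in wild-type tumours against normal liver at an adjusted p under 0.05. Over all genes 39.0% were called there. At an unadjusted p under 0.05 there were 0 of the 5. All 5 were called lower once tumours 17 and 19 were left out. The share of all genes called in that fit is not given here, so the 5 are not a result about the markers. Lgr5 and Axin2 were below log2 4 on every array but those of tumours 17 and 19. The part of these markers in the Nr1i3 result was not tested, and in bulk tissue fewer cells of a type and less RNA per cell cannot be told apart.

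**Figure D3:**
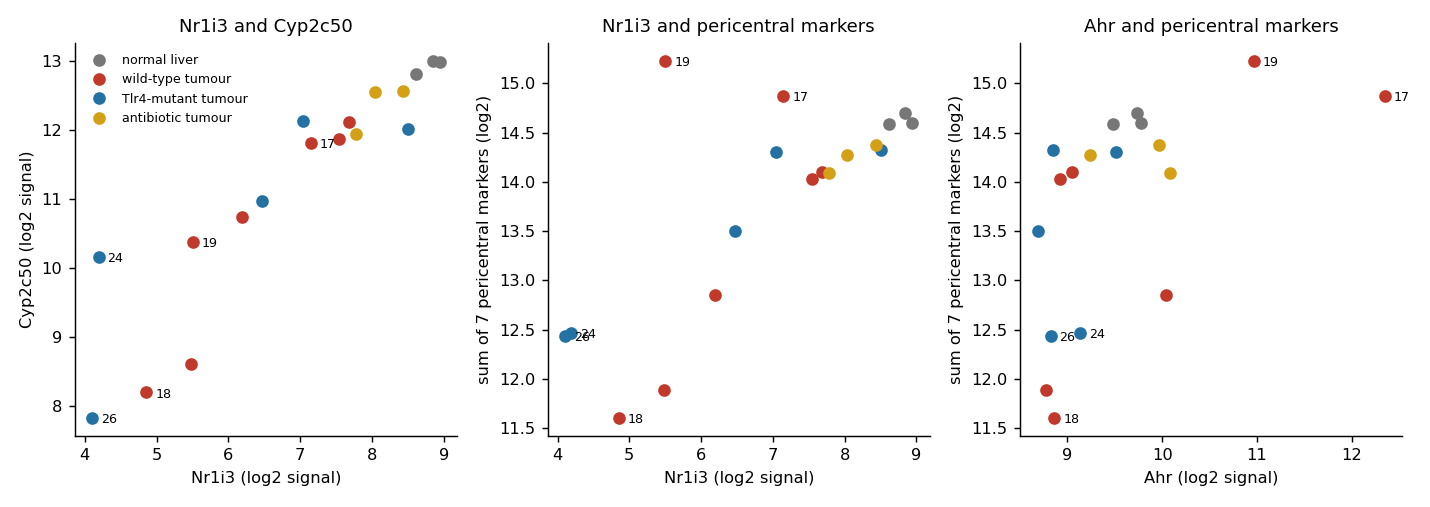
Nr1i3 against Cyp2c50 (left), Nr1i3 against the log2 of the summed level of 7 pericentral hepatocyte markers (middle) and Ahr against the same sum (right), each point 1 of the 18 arrays and all axes in log2. Low Nr1i3 went with low Cyp2c50 (mutant tumour 26, wild-type tumour 18), and wild-type tumours 17 and 19 held the highest values of both Ahr and the marker sum.

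Ppara encodes PPARalpha and was the member lower in all 3 tumour groups. The probe set that stands for it read 11.53, 11.61 and 11.60 (log2) in normal liver. It read 10.05, 9.92, 9.79, 10.22, 10.23, 11.02 and 10.78 in wild-type tumours 16 to 22. Mutant tumours 23 to 27 read 9.86, 9.46, 10.84, 10.95 and 11.37, and antibiotic tumours 10.51, 9.99 and 10.42. On this probe set no tumour of any group reached the lowest normal liver, though mutant tumour 27 came near it. Its normal livers lay within 0.08 of each other, while the mutant tumours spanned 1.91. Over all genes, 38.4% had no overlap of wild-type tumours and normal liver, in either direction. On a second bright probe set of Ppara the mutant tumours overlapped normal liver. They read up to 11.44 there, above all normal livers (11.17 to 11.28).

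The fall in Ppara was -1.29 ± 0.35 (SE, log2), or 2.45-fold, in wild-type tumours (10.29 ± 0.45, SD, n = 7, against 11.58 ± 0.04, SD, n = 3; limma adjusted p = 0.00867), and this call held when any 1 array was left out (adjusted p up to 0.0352). In mutant tumours it was -1.08 ± 0.37 (SE), or 2.12-fold, with a limma adjusted p of 0.0443. In antibiotic tumours it was -1.27 ± 0.41 (SE), or 2.41-fold, with a limma adjusted p of 0.0475. Both latter calls lay near the threshold. That in antibiotic tumours ended without any 1 of its 6 arrays (adjusted p up to 0.157) and without wild-type tumours 17 and 19 (0.0510), and that in mutant tumours without any normal liver or mutant tumour 23, 24 or 25 (up to 0.117). Both also ended with no low-signal filter and with averaged probe sets (limma adjusted p from 0.0654 to 0.0818), and that in mutant tumours with only the compared groups fitted (0.0763). The other 2 probe sets of Ppara fell in wild-type tumours by 0.96 (adjusted p = 0.0373) and 1.25 (adjusted p = 0.0107) when all probe sets were tested by limma. In the other tumour groups these 2 stood at -0.64 to -1.22 from normal liver without passing. Between tumour groups Ppara differed by 0.02 to 0.21 (log2), and all group ranges overlapped.

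Nr1i3 and Ppara, the receptors that fell in at least 2 tumour groups, have promoters of different base composition, shown here from 250 bases before to 50 bases after the start of the RefSeq transcript (GRCm38.p6, both on the plus strand), with every CG dinucleotide in capitals. The first lies at chr1:171213720-171214019 and the other at chr15:85735526-85735825.
Nr1i3: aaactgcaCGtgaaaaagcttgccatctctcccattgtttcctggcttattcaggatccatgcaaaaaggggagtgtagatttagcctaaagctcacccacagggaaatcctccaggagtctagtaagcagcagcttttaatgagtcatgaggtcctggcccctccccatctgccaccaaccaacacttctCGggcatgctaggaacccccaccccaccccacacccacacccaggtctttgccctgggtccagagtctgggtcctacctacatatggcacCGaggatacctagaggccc
Ppara: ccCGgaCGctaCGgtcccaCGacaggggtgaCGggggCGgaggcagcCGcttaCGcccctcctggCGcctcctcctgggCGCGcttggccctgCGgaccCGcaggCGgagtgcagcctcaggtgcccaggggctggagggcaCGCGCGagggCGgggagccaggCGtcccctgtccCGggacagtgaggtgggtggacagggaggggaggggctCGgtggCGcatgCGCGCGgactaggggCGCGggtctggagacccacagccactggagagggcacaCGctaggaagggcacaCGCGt
The Nr1i3 window held 3 CG dinucleotides and 54% G and C, and the Ppara window 30 and 74.7%. The median over 32851 promoter windows was 7. No copy of the nuclear receptor half-site AGGTCA, on either strand, was in these 2 windows, and 16.3% of all windows held one. The letters GCGTG, the core to which the aryl hydrocarbon receptor binds, occurred 3 times in the Ppara window and not in that of Nr1i3, and were found in 32.4% of all windows. A match is only a match of letters. Of the 9 genes 7 had a window in the table, and Ahr and Nr3c1 did not.

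Nr1i2, which encodes PXR, did not follow Nr1i3 in the group means. Its brighter probe set read 6.57, 6.42 and 6.95 (log2) in normal liver. Wild-type tumours ran from 5.37 through a median of 6.40 to 7.26, mutant tumours from 5.59 to 7.72, and antibiotic tumours from 6.60 to 7.08. All groups overlapped, and wild-type tumour 20 and mutant tumour 24 were the low arrays. The difference from normal liver was -0.19 ± 0.39 (SE) in wild-type, 0.09 ± 0.41 in mutant and 0.18 ± 0.46 in antibiotic tumours (limma adjusted p = 0.717, 0.896 and 0.815), with 95% intervals that together ran from -1.02 to 1.16. The dimmer probe set, at means of 4.53 to 5.25, was 0.35 above normal liver in wild-type tumours, so the probe sets differed in sign and neither passed. Within tumours Nr1i2 and Nr1i3 had an r of 0.64, and the closest genes to Nr1i2 were Gne (r 0.91), Mknk2 (r 0.88) and Hs6st1 (r 0.88).

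Genes known to respond to these receptors were followed in lists, whose counts in wild-type tumours are to be read against the 39.0% of all genes called and 20.2% called lower. For mutant tumours these shares are 22.3% and 10.5%, and for antibiotic tumours 15.0% and 6.91%. Shares over all genes without wild-type tumours 17 and 19 are not given here, so counts without them are not a result about a list. Of the CAR and PXR targets, 9 of 17 tested genes fell and 1 rose in wild-type tumours, with a list median of -1.20 (log2) beside -0.01 over all genes. Ces2a, a carboxylesterase, fell by 3.07 ± 0.67 (SE, log2; limma adjusted p = 0.00255), and Cyp3a25, a cytochrome P450, fell by 0.95 ± 0.22 (SE; limma adjusted p = 0.00406). Cyp2c29, Cyp2c37, Cyp2c50, Cyp2c54, Cyp3a11, Abcc3 and Slco1a4 also fell. The gene that rose, Abcb1a, encodes the drug efflux pump P-glycoprotein. It read 4.31 to 4.59 in normal liver and 5.86 to 10.2 in wild-type tumours, a rise of 3.46 ± 0.68 (SE; limma adjusted p = 0.00139), and it rose by 2.99 in mutant and 3.85 in antibiotic tumours. In mutant tumours 1 gene of the list fell (Cyp3a25) and 1 rose, in antibiotic tumours 1 fell (Cyp3a11) and 1 rose, with list medians of -1.24 and -0.47. Ces2a stood at -1.77 and -2.09 in those groups without passing (limma adjusted p = 0.0809 and 0.0823), and Cyp3a25 fell by 0.74 in mutant tumours. Without wild-type tumours 17 and 19, falls numbered 8 in wild-type, 3 in mutant and 3 in antibiotic tumours. In wild-type tumours the calls of Cyp3a11 (-0.59, limma adjusted p = 0.0661) and Abcc3 (-0.95, limma adjusted p = 0.0646) then ended, and Cyp2c55 was called lower.

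**Figure D4:**
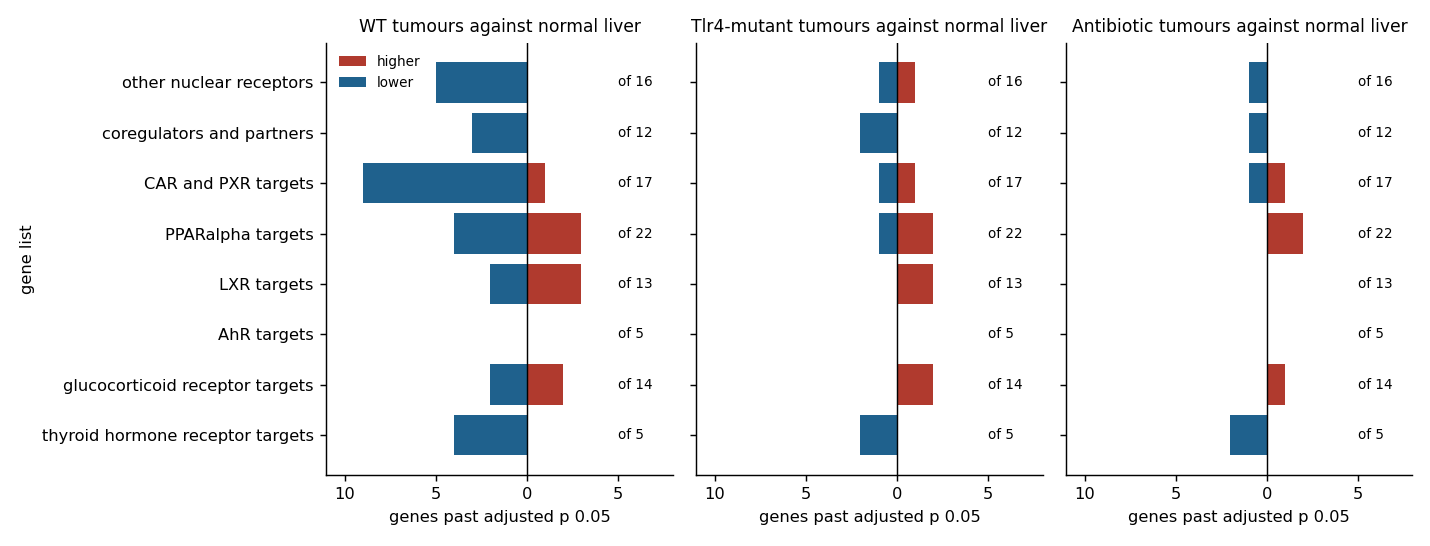
Number of genes in each of 8 hand-written lists that were higher (red, right of 0) or lower (blue, left of 0) than normal liver at a limma adjusted p under 0.05, in wild-type (WT), Tlr4-mutant and antibiotic tumours, with the number of genes tested beside each bar. Falls among CAR and PXR targets numbered 9 of 17 in wild-type tumours and 1 in each other tumour group. Over all genes 20.2%, 10.5% and 6.91% were called lower in wild-type, mutant and antibiotic tumours. The list medians were -1.20, -1.24 and -0.47 (log2), so the counts do not follow the size of the differences alone.

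Ahr, the receptor for dioxins and plant indoles, varied most within the wild-type tumours. Its detected probe set read 9.48, 9.73 and 9.78 (log2) in normal liver. Wild-type tumours 16 to 22 read 10.04, 12.35, 8.86, 10.96, 8.78, 9.05 and 8.93. Mutant tumours read 9.51, 9.13, 8.69, 8.82 and 8.85, and antibiotic tumours 9.24, 10.08 and 9.97. Wild-type tumours 17 and 19 were the highest of the 18 arrays, and 4 of the other wild-type tumours were below every normal liver. The difference of wild-type tumours from normal liver, 0.19 ± 0.60 (SE; limma adjusted p = 0.824), became -0.53 ± 0.28 (adjusted p = 0.147) without those 2 arrays, so its sign rested on them. The difference of mutant tumours, -0.66 ± 0.63 (SE), did not pass (limma adjusted p = 0.465), but did when only those 2 groups were fitted (0.0335). The second Ahr probe set stayed below log2 4 on all arrays.

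The 2 arrays high in Ahr were also the highest in the pericentral marker sum (14.88 and 15.23) and the lowest in the sum of 4 periportal markers (12.99 and 9.99, against 14.91 to 15.05 in normal liver). Glul, the glutamine synthetase of pericentral hepatocytes, read 12.7 and 13.1 on them and 8.54 to 11.1 in the other wild-type tumours. Over the 15 tumours the r of Ahr with the pericentral sum was 0.57 (rho 0.63), and 0.36 without tumours 17 and 19. With the periportal sum it was -0.52, and 0.15 without them. The part of these markers in the Ahr levels was not tested. The closest genes to Ahr over the 15 tumours were Rpl41 (r 0.93, and 0.72 without the pair), Ccn4 (r 0.93 and 0.62) and Cited2 (r 0.92 and 0.76), so this likeness rested in part on tumours 17 and 19. Ccn4 reached only 3.09 (log2) in normal liver and 3.16 in mutant tumours, and its median in wild-type tumours was 3.05, below the detection limit. Ahr and Nr1h3 ran opposite to each other, with r -0.75, and -0.69 without the pair.

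Of the 5 aryl hydrocarbon receptor targets tested, 0 passed limma at an adjusted p under 0.05 in wild-type, mutant or antibiotic tumours against normal liver, with 2 at an unadjusted p under 0.05 in each. The share of all genes at that unadjusted threshold is not given here, so the 2 are not a result about the list. Even at the adjusted threshold 39.0%, 22.3% and 15.0% of all genes were called. Cyp1a2, the main drug-metabolising Cyp1a enzyme of liver, was the gene with the largest difference. It read 13.1 on all 3 normal livers and from 5.89 in wild-type tumour 18 to 12.8 in wild-type tumour 19. The difference was -2.86 ± 1.32 (SE, log2; limma adjusted p = 0.0967), with no overlap of the groups, which was so for 38.4% of all genes. In mutant tumours it was -3.08 and in antibiotic tumours -1.54 (limma adjusted p = 0.121 and 0.523). Without wild-type tumours 17 and 19, Cyp1a2 was called lower in wild-type tumours.

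Of 22 tested PPARalpha targets, 4 fell and 3 rose in wild-type tumours, with a median of -0.15 (log2). That is no larger a share than among all genes (39.0% called, 20.2% lower), and so is not a result about the list. The falls were in enzymes and carriers of fatty acid oxidation. Cpt2, which reforms acyl-CoA inside the mitochondrion, fell by 0.96 ± 0.28 (SE; limma adjusted p = 0.0143), and Slc25a20, the carnitine-acylcarnitine carrier, fell by 0.67 ± 0.22 (SE; limma adjusted p = 0.0265). Acaa1b and Decr1 were the other 2, and neither was called without tumours 17 and 19 (-0.82 and -0.38, limma adjusted p = 0.0530 and 0.0504), when Acot1 was called lower instead. The rises were in Fgf21, a fasting hormone, in Vnn1, a pantetheinase, and in Cd36, a fatty acid uptake receptor. Vnn1 was not above log2 4 in any normal liver (3.60 ± 0.39, SD, n = 3) and averaged 10.16 ± 0.51 (SD, n = 7) in wild-type tumours, at least 71.5-fold higher taken against log2 4 (limma adjusted p = 0.000351). It also rose in mutant and antibiotic tumours, although antibiotic tumour 28 read 3.67, as low as normal liver. Cd36 rose by 4.32, 4.27 and 5.16 in wild-type, mutant and antibiotic tumours. In mutant tumours 2 genes of the list rose and 1, Acot1, fell, and in antibiotic tumours 2 rose and 0 fell.

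The genes nearest to Ppara over the 15 tumours were Lrp4 (r 0.93), Mtss1 (r 0.91) and Pank1 (r 0.90), the last an enzyme of coenzyme A synthesis. Of the 22 PPARalpha targets 18 had r above 0 with Ppara, with a median r of 0.34 beside 0.02 over all genes. With Nr3c1 17 of the 22 had r above 0, with a median r of 0.30. Without tumours 17 and 19 these medians were 0.40 with Ppara and 0.41 with Nr3c1. Ppara also had a median r of 0.37 with the 16 other nuclear receptors tested. The likeness was thus not particular to Ppara and its targets.

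Rxra, the shared partner of CAR, PXR, PPARalpha and LXRalpha, passed in no comparison. It read 9.63, 9.80 and 9.69 (log2) in normal liver, and 9.15 to 10.13 with a median of 9.24 in wild-type tumours. Mutant tumours read 9.90, 9.02, 10.17, 10.20 and 10.54, and antibiotic tumours 9.98, 9.56 and 9.83. Among wild-type tumours 5 of 7 were below all normal livers, whereas 4 of 5 mutant tumours were above all normal livers. Mutant tumours exceeded wild-type tumours by 0.57 ± 0.23 (SE; 95% interval 0.09 to 1.05), which did not pass (limma adjusted p = 0.237). Differences from normal liver were -0.31, 0.26 and 0.08 in wild-type, mutant and antibiotic tumours (limma adjusted p = 0.371, 0.522 and 0.884). The second detected probe set lay near the limit, at means of 3.74 to 4.16, and passed in no comparison with normal liver.

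Rxra and Ppara varied together among the tumours (r 0.80, rho 0.71), as did Rxra and Nr1i2 (r 0.74, and 0.89 without tumours 17 and 19). The genes nearest to Rxra were Sec16a, Slc37a4, the glucose-6-phosphate transporter, and Igfbp4, with r of 0.92, 0.92 and 0.90. Mutant tumour 24 was the lowest array of all 18 for both Rxra and Ppara, and mutant tumour 27 the highest tumour for both.

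Nr1h3, which encodes LXRalpha, passed in no comparison. Normal livers read 6.41, 6.10 and 6.09 (log2), wild-type tumours 5.08 to 6.29 with a median of 5.46, mutant tumours 5.76 to 6.54 and antibiotic tumours 5.45 to 6.36. Tumours 16, 17, 18 and 19 of the wild-type group were the lowest, at 5.28, 5.24, 5.46 and 5.08, and the other 3 reached 6.13 to 6.29. The difference in wild-type tumours was -0.53 ± 0.28 (SE; 95% interval -1.13 to 0.06; limma adjusted p = 0.142). It was -0.06 in mutant and -0.33 in antibiotic tumours (limma adjusted p = 0.898 and 0.520). LXRalpha is also made by macrophages. The summed level of 10 macrophage markers was 9.29 to 10.45 (log2) in normal liver, 9.95 to 12.13 in wild-type, 9.71 to 11.96 in mutant and 8.84 to 12.30 in antibiotic tumours. In wild-type tumours 3 of 9 tested markers (C1qb, Lyz2 and Cd68) rose, where 39.0% of all genes were called. Without tumours 17 and 19 there were 4, and the share over all genes in that fit is not given here. The macrophage sum had an r of -0.28 with Nr1h3 over the 15 tumours, and -0.65 without tumours 17 and 19. The part of these markers in the Nr1h3 level was not tested. The genes nearest to Nr1h3 were Cyb5r3 (r 0.92), Etfrf1 (r 0.91) and Ak4 (r 0.89).

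Among 13 tested LXR targets 3 rose and 2 fell in wild-type tumours, with a median of 0.09 (log2) and a share called close to that of all genes (39.0%). The cholesterol exporter Abca1 rose by 0.60 ± 0.15 (SE; limma adjusted p = 0.00473), and Lpl, lipoprotein lipase, rose by 2.00 ± 0.55 (SE; limma adjusted p = 0.0104). Abcg1 was the third. Srebf1, the master regulator of fatty acid synthesis, fell by 1.08 ± 0.38 (SE; limma adjusted p = 0.0360). Cyp7a1, which encodes the enzyme that starts the classic route from cholesterol to bile acids, fell by 3.47 ± 1.28 (SE; limma adjusted p = 0.0423), and read from 4.26 to 10.89 in wild-type tumours against 11.09 to 11.34 in normal liver. Neither fall was called once tumours 17 and 19 were left out (limma adjusted p = 0.0672 and 0.0848). Abca1 and Lpl also rose in mutant tumours, by 0.58 and 2.38, and no gene of the list was called in antibiotic tumours by limma at an adjusted p under 0.05. Cyp7a1 was -0.35 from normal liver there (limma adjusted p = 0.900), and 3.12 above wild-type tumours without passing (limma adjusted p = 0.268).

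Esr1, the oestrogen receptor alpha, was lower in wild-type tumours and did not pass in the other tumour groups. The probe set that stands for it read 9.27, 9.64 and 9.60 (log2) in normal liver. Wild-type tumours 16 to 22 read 9.02, 8.11, 8.86, 7.86, 8.62, 8.83 and 9.24. Mutant tumours ran from 8.73 to 9.65 and antibiotic tumours from 8.64 to 9.55. Wild-type tumours lay below all normal livers, barely so for tumour 22, with tumours 17 and 19 lowest, and the other tumour groups overlapped normal liver. For 38.4% of all genes wild-type tumours and normal liver did not overlap, in either direction. The fall was -0.85 ± 0.28 (SE), or 1.81-fold (limma adjusted p = 0.0267). It was -0.59 (adjusted p = 0.0629) without tumours 17 and 19 and -0.63 (adjusted p = 0.0696) with averaged probe sets, and the call also ended without normal liver 2 or 3 (adjusted p up to 0.0985). The second detected probe set was -0.40 ± 0.27 (SE) from normal liver and did not pass (limma adjusted p = 0.247). In mutant and antibiotic tumours the difference was -0.43 and -0.33 (limma adjusted p = 0.313 and 0.521). Mutant tumours were 0.43 ± 0.24 (SE; limma adjusted p = 0.376) and antibiotic tumours 0.52 ± 0.28 (SE; limma adjusted p = 0.386) above wild-type tumours, without passing. Marker sums of several kinds of cell, hepatocytes among them, moved with Esr1 across the 15 tumours. The r was 0.75 with the periportal hepatocyte, 0.74 with the endothelial and 0.61 with the stellate and fibroblast sum. Without tumours 17 and 19 these were 0.43, 0.51 and 0.31. The general hepatocyte sum had an r of 0.53, and -0.16 without them. The pericentral hepatocyte sum had an r of -0.11, and 0.54 without them. The sum of 7 endothelial markers was 9.36 to 10.32 (log2) in normal liver, 5.77 and 8.16 in tumours 17 and 19, and 8.76 to 11.17 in antibiotic tumours. The sum of 8 stellate and fibroblast markers was 10.04 to 11.07 in normal liver and 8.54 to 11.20 in wild-type tumours. No endothelial or stellate marker passed in any tumour group. Of 4 periportal markers 2 fell in wild-type tumours, where 20.2% of all genes were called lower. The part of these markers in the Esr1 levels was not tested. The nearest genes to Esr1 were Apon, Ido2 and Coasy (r 0.91, 0.88 and 0.87), and without tumours 17 and 19 these were 0.79, 0.70 and 0.69. Ido2 lay near the detection limit in wild-type tumours (median 4.29, log2).

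Nr3c1, the glucocorticoid receptor, was the steadiest member. Its brightest probe set read 10.32 to 10.41 (log2) in normal liver, 10.09 to 10.35 in wild-type, 9.98 to 10.35 in mutant and 10.11 to 10.27 in antibiotic tumours. Antibiotic tumours lay below all normal livers, as 22.5% of all genes did. The differences were -0.13 ± 0.10, -0.19 ± 0.11 and -0.20 ± 0.12 (SE) in wild-type, mutant and antibiotic tumours, and none passed (limma adjusted p = 0.325, 0.208 and 0.262). The 95% intervals of all 3 lay between -0.46 and 0.09. The gene has 6 probe sets, of which 5 were detected and 2 passed in 1 comparison each when all probe sets were tested by limma. A bright one fell by 0.48 in mutant tumours (adjusted p = 0.0487). Another, which lay near the detection limit at 3.58 ± 0.44 (SD, n = 3) in normal liver, rose to 4.86 ± 0.46 (SD, n = 7) in wild-type tumours (adjusted p = 0.00382), against the sign of the bright probe sets. Both carry the suffix of probe sets that may match other transcripts. The nearest genes to Nr3c1 were Myo19, Stim2 and Atp6v1d (r 0.88, 0.87 and 0.85). Myo19 lay near the detection limit, with group means from 3.41 to 3.87 (log2).

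Of 14 tested glucocorticoid receptor targets 2 rose and 2 fell in wild-type tumours, with a median of -0.57 (log2), a smaller share than the 39.0% of all genes. Igfbp1, a hepatic binding protein of insulin-like growth factors, rose by 4.79 ± 0.38 (SE; limma adjusted p = 5.63e-07), and by 4.53 and 4.22 in mutant and antibiotic tumours. The transcription factor gene Zbtb16 rose by 1.19 in wild-type and 1.61 in mutant tumours. Dusp1, a MAP kinase phosphatase, fell by 2.13 ± 0.68 (SE; limma adjusted p = 0.0220), and Pck1, the rate-limiting enzyme of gluconeogenesis, fell by 1.86 ± 0.70 (SE; limma adjusted p = 0.0450). In mutant and antibiotic tumours 2 and 1 genes rose and 0 fell, by the same test.

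Thrb, the thyroid hormone receptor beta, was read by 1 probe set that lay between 1.44 and 2.42 (log2) on all 18 arrays. It was never above log2 4 and has no usable level here. Thra, its paralogue, was measured and differed from normal liver by -0.26 in wild-type tumours without passing. Of the 5 tested thyroid hormone targets 4 fell in wild-type tumours, 2 in mutant tumours (Dio1 and Me1) and 2 in antibiotic tumours (Dio1 and Klf9). Dio1, the deiodinase that makes active thyroid hormone, read 8.39 to 9.21 in normal liver and 1.69 to 5.11 in wild-type tumours. It fell by 5.81 ± 0.60 (SE; limma adjusted p = 7.57e-06) in wild-type tumours and fell by 4.37 in mutant tumours. These fitted values rest partly on signals below the limit, since only wild-type tumour 16 and mutant tumours 23, 26 and 27 were above log2 4. All antibiotic tumours were below it, which makes Dio1 at least 26.4-fold lower there than in normal liver (limma adjusted p = 0.000128). Me1, malic enzyme, fell by 2.21 in wild-type and 3.15 in mutant tumours, and was -1.96 from normal liver in antibiotic tumours (limma adjusted p = 0.0600). Klf9 and Thrsp were the other 2 that fell in wild-type tumours, and Thrsp was not called without tumours 17 and 19 (-1.93, limma adjusted p = 0.0787).

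Of 16 other nuclear receptors tested 5 fell and 0 rose in wild-type tumours, where 20.2% of all genes were lower and 39.0% called. They were Nr2f2, Rxrb, Nr3c2, Nr1h4 and Esrra. Nr2f2, an orphan receptor, fell by 1.23 ± 0.29 (SE, log2; limma adjusted p = 0.00391), and Rxrb, a further retinoid X receptor, fell by 0.71 ± 0.19 (SE; limma adjusted p = 0.00918). Nr1h4, which encodes the bile acid receptor FXR, was at -1.31 (limma adjusted p = 0.0230), and was not called without tumours 17 and 19 (-0.95, limma adjusted p = 0.0614). In mutant tumours 1 fell (Nr2f2) and 1 rose (Nr4a1), and in antibiotic tumours 1 fell (Nr5a2). Of 12 coregulators and partners 3 fell and 0 rose in wild-type tumours, Ppargc1b, Ncoa1 and Med1, a share close to the 20.2% of all genes called lower. Without tumours 17 and 19 there were 4, with Nrip1, and the share over all genes in that fit is not given here. Med1 also fell in mutant and antibiotic tumours. Ppargc1b, a coactivator of genes for mitochondrial oxidation, read 9.06 to 9.29 in normal liver and 3.35 to 7.27 in wild-type tumours, a fall of 3.04 ± 0.73 (SE; limma adjusted p = 0.00454). It fell by 2.34 in mutant tumours and was -2.32 from normal liver in antibiotic tumours (limma adjusted p = 0.0770). Ncoa1, a steroid receptor coactivator, fell by 0.52 ± 0.13 (SE; limma adjusted p = 0.00682). Arnt, the partner of the aryl hydrocarbon receptor, did not pass (-0.12).

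Over the 8 lists together, 0 of the 104 tested genes passed limma at an adjusted p under 0.05 in any of the 3 comparisons between tumour groups. Over all genes 0.265% (mutant against wild-type), 0.0884% (antibiotic against wild-type) and 0.232% (mutant against antibiotic tumours) passed that test. At an unadjusted p under 0.05 there were 12, 13 and 7 of the 104 in the same order. The shares over all genes at that threshold were 16.7%, 15.5% and 10.3%, so these counts are not a result about the lists.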

How the data were processed

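Total RNA of 18 liver and tumour samples was hybridised to mouse oligonucleotide arrays. The deposited values are log2 signals per probe set that the authors made with GCRMA, which corrects background, normalizes between arrays and summarises probes. The tool is named per the submitters' processing notes, and its version and a genome build are not given in the sources used here. Groups were taken from the sample labels. The members, gene lists and rules were chosen with earlier results of these data known, so patterns in them are not independent evidence. The platform table gives 1 gene symbol for 34945 probe sets, several for 932 and none for 9160, and probe sets without exactly 1 symbol were not used.

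Probe sets above log2 4 on at least 3 arrays were kept (16663), and the one of highest mean stood for its gene. The 4 group means were estimated from all 18 arrays in limma 3.58.1 under R 4.3.3 (moderated variances, two-sided tests, Benjamini-Hochberg adjustment over 9053 genes), and an adjusted p under 0.05 counted as changed. For the fold alone, a group below log2 4 on every array was set to log2 4 and the fold given as "at least". The limma tests used the values as they were, also those below log2 4. The code was tested on simulated data. Correlations used the 15 tumours and carry no test. No 2 arrays were duplicates (highest r 0.993). Arrays have no read depth, and their number limits the precision.

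All 9 members were named. From each list the 2 passing genes of smallest p in each direction in wild-type tumours against normal liver were named with their values, or the largest change where none passed, as were the 3 genes nearest to each member over the 15 tumours. Other genes named, such as Lgr5, Thra and Arnt, were picked with their values known. The settings changed one at a time were the low-signal filter (none, or log2 6), the probe sets (averaged per gene, each tested, or those with possible shared sequence dropped), centred arrays, quantile normalization, robust trended variances, array weights, only the 2 groups compared, an adjusted p under 0.01, a 2-fold minimum, and leaving out each array or wild-type tumours 17 and 19. Figures were drawn with matplotlib 3.10.9 in python 3.11.15. Promoter windows are those of RefSeq on GRCm38.p6.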

Additional observations from a re-analysis of the deposited data

How the results depend on the processing

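No paired analysis was possible because the groups share no replicate number in the labels. Over the alternatives run, 872 receptor differences kept their direction and side of the threshold, 31 lost the threshold, 2 gained it and 43 changed sign. Most of the differences had not passed in the main fit, and so had no call to lose. All 31 losses fell on calls against normal liver: Nr1i3 and Esr1 in wild-type, Nr1i3 and Ppara in mutant, and Ppara in antibiotic tumours. Of 132 counts of receptors called, 25 moved by more than 1.5 times, all of them against normal liver. The counts between tumour groups, 0 in the main fit, are among the 132. Ppara in wild-type tumours against normal liver fell in each of them. Centred arrays and quantile normalization changed no call. Apart from the dropped probe set of Nr1i3 named below, the cause of the changes was not tested.

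Of receptors called against normal liver, wild-type tumours had 1 at an adjusted p under 0.01 and 1 to 3 when 1 array was left out. Mutant tumours had 1 without the filter, with mean probe sets and with only the 2 groups. They had 0 at an adjusted p under 0.01, and 0 to 2 with 1 array left out. Without probe sets that may share sequence the count was also 1, but no receptor tested there lost the threshold. The only probe set of Nr1i3 was among those dropped, so Nr1i3 was not tested in that setting. Antibiotic tumours had 0 under each of no filter, mean probe sets, an adjusted p under 0.01 and no tumours 17 and 19, and 0 to 0 with 1 array left out. At an unadjusted p under 0.05 limma gave 1, and the share of all genes at that threshold is not given here.

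Signs that turned belonged to differences that did not pass or, for Ppara, lay between tumour groups. With mean probe sets, wild-type tumours against normal liver gave 0.080 for Nr1i2 and 0.087 for Nr3c1, and antibiotic tumours -0.17 for Rxra. With array weights, the differences from normal liver were -0.26 (Ahr, wild-type), 0.074 (Nr1h3, mutant) and -0.069 (Ahr, antibiotic), those from wild-type tumours 0.0095 (Nr3c1, mutant), -0.095 (Ppara, antibiotic) and 0.19 (Ahr, antibiotic), and mutant against antibiotic tumours 0.033 (Nr1i2). Array weights also let Esr1 pass in mutant tumours (-0.60, adjusted p = 0.0101). Without tumours 17 and 19, Ahr was -0.53 in wild-type tumours against normal liver, and antibiotic against wild-type tumours gave -0.066 for Ppara and 0.63 for Ahr.

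With 1 array left out, ranges that crossed 0 against normal liver were -0.23 to 0.37 (Ahr, wild-type), -0.16 to 0.38 (Nr1i2, mutant), -0.16 to 0.042 (Nr1h3, mutant), -0.012 to 0.20 (Rxra, antibiotic) and -0.056 to 0.36 (Ahr, antibiotic). Against wild-type tumours they were -0.89 to 0.21 (Nr1i3, mutant), -0.0081 to 0.47 (Ppara, mutant), -0.078 to 0.18 (Ppara, antibiotic), -0.041 to 0.41 (Nr1h3, antibiotic) and -0.27 to 0.33 (Ahr, antibiotic). Mutant against antibiotic tumours gave -0.34 to 0.19 (Nr1i2), -0.030 to 0.45 (Ppara), -0.36 to 0.097 (Esr1) and -0.036 to 0.061 (Nr3c1). A group of 3 arrays against 7 leaves wide intervals, so a receptor that did not pass may still differ.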
